A study of Mus musculus with 8 samples.

Results

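The 10 genes described here are Atf4 and 9 genes known as targets of its protein in the integrated stress response: Ddit3, Atf3, Trib3, Asns, Chac1, Sesn2, Ddit4, Psat1 and Phgdh. All 10 are among the 55291 gene symbols of each count table, and all 10 are among the 16371 genes that passed the expression filter and were tested. RNA was sequenced from mouse embryonic stem cells, labelled E14, of 2 edited lines. In the DHX35-dTAG line the RNA helicase DHX35 carries the FKBP12 F36V degron, and in the GPATCH1-dTAG line its G-patch partner GPATCH1 carries it. Both proteins belong to the spliceosome. Each line was treated for 4 h with DMSO, the solvent, or with 200 nM dTAG-13, a compound that couples the degron to the ubiquitin ligase machinery. Each of these 4 groups had 2 libraries. The cells of all groups thus carry a degron knock-in, no untagged line was analysed here, and the labels do not say which picked clone each library came from. The labels' growth protocol mentions R1 cells in place of E14, with serum, LIF and the inhibitors PD0325901 and CHIR99021 in the medium of all groups. Nothing in the labels says whether the 2 replicates of a group were separate cultures, so the p-values measure the spread between these libraries, which may be technical.

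In the integrated stress response, kinases that sense amino acid shortage, unfolded proteins, double-stranded RNA or lack of haem phosphorylate the translation factor eIF2. General protein synthesis then slows, while the Atf4 mRNA is translated more, because short reading frames in its 5′ leader no longer hold ribosomes back. ATF4 raises genes of amino acid synthesis, amino acid import, tRNA charging and redox balance, and with time also Ddit3 and Trib3. Several of these mRNAs, among them Atf4, Atf3 and Ddit3, are also known substrates of nonsense-mediated decay, the pathway that destroys mRNAs with premature or unusual stop codons, such as those left by faulty splicing. Gene counts report mRNA and not the ATF4 protein.

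ATF4 binds as a dimer, often with a C/EBP protein, to a composite element whose core can be written TGATGNAA. To show where this element lies in the genes compared, the RefSeq promoters (GRCm38.p6, from 250 bases before to 50 after the annotated start) were searched on both strands, with overlaps between matches allowed. The core was found in 1304 of 32851 promoters of the genome (3.97%) and in those of 4 of the 10 genes, which had 11 promoter windows in all. The sequences below run along the coding strand of each gene, and capitals mark the core or its reverse complement.
Atf3 (chr1:191183426-191183453, first base of the match at -110 from the start): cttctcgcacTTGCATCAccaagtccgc
Trib3 (chr2:152344029-152344056, at 15): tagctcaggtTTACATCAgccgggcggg
Asns (chr6:7693215-7693242, at -23): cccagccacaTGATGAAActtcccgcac
Chac1 (chr2:119351039-119351066, at -193): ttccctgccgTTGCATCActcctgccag
A match is a description of these letters. The windows of Atf4, Ddit3, Sesn2, Ddit4, Psat1 and Phgdh did not hold them.

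The libraries held from 12014203 to 14994173 counts, of which 2 ribosomal RNA genes took from 1.27% to 20.9%. Levels are given as CPM, counts relative to the library size after scaling by TMM, which corrects for such unequal shares. In DHX35-dTAG cells, DMSO replicate 1 stood apart, with a mean correlation of 0.976 with the other libraries against 0.988 to 0.990 for each of those, and with 0.272% of its counts on mitochondrial mRNAs against 0.758% to 1.13%. The 6 pluripotency markers Pou5f1, Nanog, Sox2, Esrrb, Zfp42 and Klf4 summed to between 3008 and 3297 CPM in every library, as genes that define the labelled cell type. The 6 fibroblast markers summed to between 2.56 and 5.76 CPM, with Lum at 0 in all 8 libraries, and the 6 differentiation markers to between 12.1 and 16.2 CPM. The mRNA of Dhx35 in its own line was at 76.3 ± 5.75 CPM (SD, n = 2) in DMSO and 82.2 ± 3.74 in dTAG-13, and that of Gpatch1 in its own line at 7.10 ± 0.295 and 7.13 ± 0.0980 CPM. In the other line Dhx35 was at 58.3 ± 0.232 and 62.1 ± 3.96 CPM and Gpatch1 at 24.5 ± 1.59 and 23.4 ± 0.378 CPM. Gpatch1 mRNA was thus lower in the GPATCH1-dTAG line already in DMSO (log2 difference -1.78, standard error 0.12, adjusted p = 0.000643, edgeR). A degron acts on protein, so these mRNAs do not check the depletion.

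On depletion of DHX35, none of the 10 genes passed the test (0 of 10 with a Benjamini-Hochberg adjusted p under 0.05, edgeR quasi-likelihood test), and neither did any other gene (0% of the 16371). On depletion of GPATCH1 the counts were again 0 of 10 and 0% of all genes. At an unadjusted p under 0.05 stood 1 of the 10 genes on DHX35 depletion, against 5.39% of all genes, and 0 of 10 on GPATCH1 depletion, against 2.97%. The median log2 fold change of the 10 genes was -0.07 on DHX35 depletion, with 4 higher and 6 lower, and 0.03 on GPATCH1 depletion, with 7 higher and 3 lower, while the medians of all genes tested were -0.01 and 0.00. The intervals bound what could have gone unseen. In both depletions the 95% intervals of all 10 genes lay within a 2-fold change in either direction (a log2 of 1), with the highest upper limit at 0.98 for Chac1 on DHX35 depletion and the lowest lower limit at -0.94 for Atf3 on GPATCH1 depletion. On DHX35 depletion this bound held for 9 of the 10 genes without replicate 1 in DMSO (Atf3 reached -1.10) and for 7 without replicate 2 (Chac1 reached 1.19, Atf3 1.08 and Ddit3 1.05). Counts from whole cultures cannot tell fewer cells that express a gene from less of its RNA per cell.

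**Figure D1:**
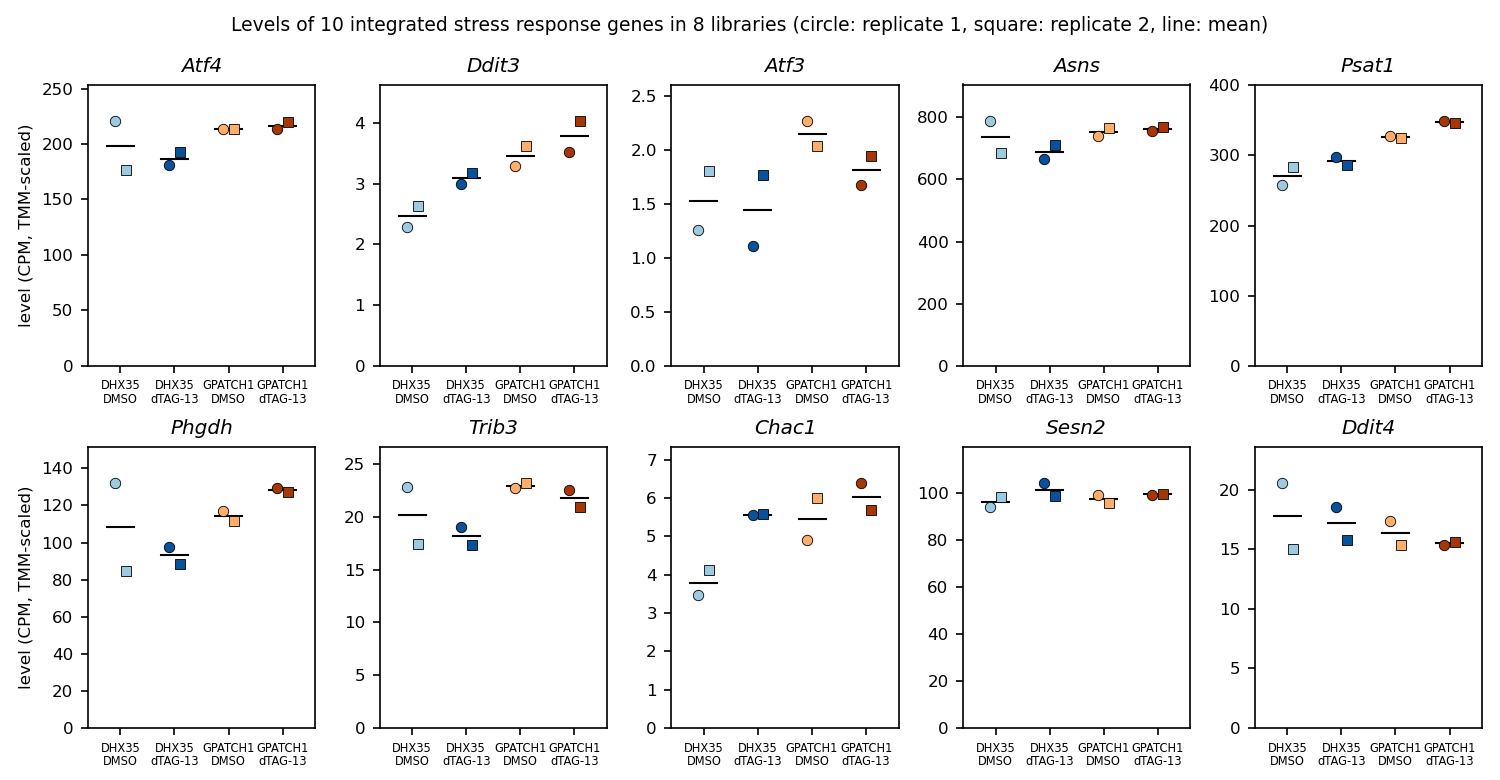
The vertical axes give the level in CPM after TMM scaling, from 0, and the horizontal axes the 4 groups, with a circle for replicate 1, a square for replicate 2 and a line at their mean. The DMSO replicates of DHX35-dTAG cells lie far apart for Phgdh (132 and 84.5 CPM), Atf4, Trib3 and Ddit4, while the replicates of GPATCH1-dTAG cells lie close together for most genes.

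Atf4, the transcription factor at the head of the response, lies on chromosome 15 from 80255184 to 80257541 (GRCm38, plus strand, 1 block of exon sequence in GENCODE M21). In DHX35-dTAG cells it was at 221 and 176 CPM in DMSO and at 181 and 193 CPM in dTAG-13, so both treated libraries lay between the DMSO libraries. In GPATCH1-dTAG cells it was at 213 and 214 CPM in DMSO and at 213 and 219.6 CPM in dTAG-13. These levels rest on 2118 to 3445 counts per library. The log2 fold change of Atf4 was -0.09 on DHX35 depletion (standard error 0.11, 95% interval -0.33 to 0.16, adjusted p = 0.808 from edgeR) and 0.02 on GPATCH1 depletion (standard error 0.11, 95% interval -0.22 to 0.26, adjusted p = 1). Both were within the spread between replicates.

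Ddit3 encodes CHOP, a transcription factor of prolonged stress, and Atf3 encodes a further factor of the same bZIP class. Both were at low levels. Ddit3 (chromosome 10, from 127290774 to 127296288, plus strand) was at 2.29 and 2.64 CPM in DMSO and at 2.99 and 3.18 CPM in dTAG-13 in DHX35-dTAG cells, on 31 to 41 counts. In GPATCH1-dTAG cells it was at 3.30 and 3.62 CPM in DMSO and at 3.53 and 4.03 CPM in dTAG-13, on 41 to 57 counts. The treated libraries thus lay above the DMSO libraries in the first line and overlapped them in the second. The log2 fold changes of Ddit3 were 0.32 (standard error 0.22, adjusted p = 0.722) and 0.13 (standard error 0.20, adjusted p = 1), neither past the threshold. GENCODE M21 gives the symbol Ddit3 to 2 overlapping gene entries on the same strand, which share 105 bases, and 68 exon bases of Mars and 13 of Gm4189 lie on the opposite strand, so the counts of Ddit3 are uncertain. Atf3 (chromosome 1, from 191170296 to 191218039, minus strand) ranged from 1.11 to 2.26 CPM over the 8 libraries, on 13 to 35 counts. Its lowest count gave an exact 95% Poisson interval of 0.592 to 1.90 CPM, which covers counting error only, and its log2 fold changes of -0.10 on DHX35 depletion (standard error 0.34) and -0.26 on GPATCH1 depletion (standard error 0.30) did not pass the threshold (adjusted p = 0.934 and 1, edgeR).

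Chac1, which breaks down glutathione, had the largest log2 fold change of the 10 genes on DHX35 depletion. It lies on chromosome 2 from 119351229 to 119354381 (plus strand). In DHX35-dTAG cells it was at 3.47 and 4.11 CPM in DMSO and at 5.56 and 5.57 CPM in dTAG-13, on 47 to 65 counts. Both treated libraries lay above both DMSO libraries. The log2 fold change was 0.55, a fold of 1.46 (standard error 0.19, 95% interval 0.11 to 0.98, unadjusted p = 0.0193, adjusted p = 0.715, edgeR), which ranked 227 by p among the 16371 genes. In GPATCH1-dTAG cells Chac1 was at 4.92 and 6.01 CPM in DMSO and at 6.38 and 5.69 CPM in dTAG-13, where the groups overlapped. The log2 fold change there was 0.16 (standard error 0.18, adjusted p = 1), and from 0.01 to 0.29 with each library left out in turn. The treated level of DHX35-dTAG cells was thus within the range of the DMSO level of GPATCH1-dTAG cells.

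Trib3, Sesn2 and Ddit4 are restraining members of the response. TRIB3 is a pseudokinase that binds ATF4, while sestrin 2 and DDIT4 (REDD1) hold back the growth kinase complex mTORC1. Trib3 (chromosome 2, from 152337422 to 152344032, minus strand) was at 22.8 and 17.4 CPM in DMSO and at 19.1 and 17.3 CPM in dTAG-13 in DHX35-dTAG cells, and at 22.7 and 23.2 CPM and then 22.6 and 21.0 CPM in GPATCH1-dTAG cells. Its log2 fold changes were -0.14 (standard error 0.14) and -0.07 (standard error 0.14). Sesn2 (chromosome 4, from 132492032 to 132510501, minus strand) was the steadiest of the 10, between 93.7 and 104 CPM in all 8 libraries, with log2 fold changes of 0.08 and 0.03 (standard error 0.08 in each line). Ddit4 (chromosome 10, from 59949669 to 59951834, minus strand) was between 15.0 and 20.5 CPM, and both ends of that range were DMSO libraries of DHX35-dTAG cells. Its log2 fold changes were -0.05 (standard error 0.16) and -0.09 (standard error 0.16). None of these passed the threshold.

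The enzymes of amino acid synthesis include the most abundant of the 10 genes. Asns, asparagine synthetase, lies on chromosome 6 from 7675169 to 7693254 (minus strand). It was at 788 and 686 CPM in DMSO and at 667 and 712 CPM in dTAG-13 in DHX35-dTAG cells, and at 740.5 and 766 CPM in DMSO and 755 and 768 CPM in dTAG-13 in GPATCH1-dTAG cells. On 7799 to 12180 counts per library, its log2 fold changes were -0.10 (95% interval -0.30 to 0.11) and 0.02 (95% interval -0.19 to 0.22), so a change beyond these limits was not seen for the gene with the deepest coverage. Phgdh and Psat1 encode the enzymes of consecutive steps of serine synthesis. Phgdh (chromosome 3, from 98313170 to 98339990, minus strand) was at 132 and 84.5 CPM in DMSO and at 97.6 and 88.5 CPM in dTAG-13 in DHX35-dTAG cells. In GPATCH1-dTAG cells it was at 117 and 112 CPM in DMSO and at 129 and 127 CPM in dTAG-13, where the treated libraries lay above the DMSO libraries. The log2 fold changes of Phgdh were -0.22 (standard error 0.17, adjusted p = 0.727) and 0.16 (standard error 0.17, adjusted p = 1). Psat1 (chromosome 19, from 15904678 to 15947337, minus strand) was at 258 and 284 CPM in DMSO and 298 and 287 CPM in dTAG-13 in DHX35-dTAG cells, and at 328 and 324 CPM and then 349 and 347 CPM in GPATCH1-dTAG cells. It was the only one of the 10 genes besides Sesn2 whose treated libraries lay above the DMSO libraries in both lines, with log2 fold changes of 0.11 and 0.09 (standard error 0.08 in each), which did not pass the test.

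**Figure D2:**
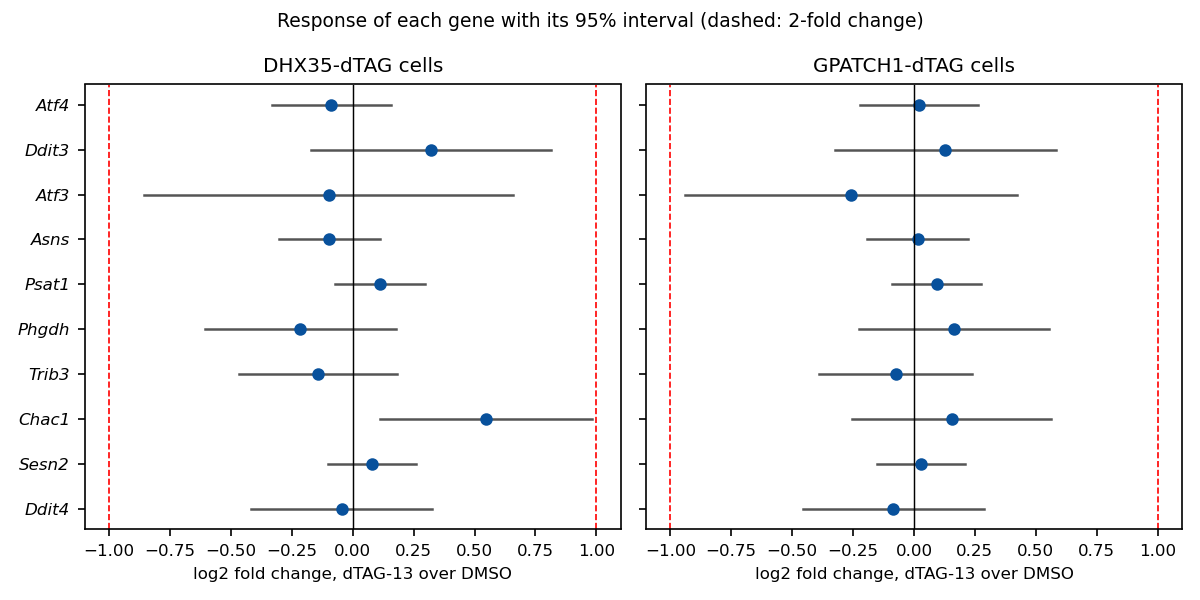
The horizontal axes give the log2 fold change of dTAG-13 over DMSO in DHX35-dTAG cells (left) and GPATCH1-dTAG cells (right), with a point for the estimate and a line for its 95% interval from edgeR, and dashed lines mark a 2-fold change. The interval of 9 of the 10 genes crosses 0 on DHX35 depletion, Chac1 being the exception, and that of 10 of 10 does on GPATCH1 depletion.

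On DHX35 depletion, 4 of the 10 genes (Ddit3, Chac1, Sesn2 and Psat1) had both treated libraries above both DMSO libraries and 0 below, while of all genes 14.6% lay above and 14.1% below (28.7% in either direction). On GPATCH1 depletion, 3 genes (Sesn2, Psat1 and Phgdh) lay above and 2 (Atf3 and Trib3) below, against 21.5% and 20.3% of all genes (41.8% in either direction). Over both lines together, 0 of the 10 genes separated the 4 dTAG-13 from the 4 DMSO libraries, against 2.25% of all genes. In the test of dTAG-13 across both lines, 0 of the 10 genes (0% of all) passed the threshold, and 1 of 10 (3.59% of all) had an unadjusted p under 0.05. This was Chac1, with a log2 fold change of 0.34 (standard error 0.14, unadjusted p = 0.0364, adjusted p = 0.963, edgeR). The responses of the lines did not differ past the threshold for any of the 10 genes (0% of all genes did), and 0 of 10 had an unadjusted p under 0.05, against 3.91% of all genes. From all libraries, the differences, as GPATCH1 response minus DHX35 response, were widest for Chac1 (-0.39, 95% interval -0.99 to 0.21) and Phgdh (0.38, 95% interval -0.17 to 0.93). Without DMSO replicate 1 of the DHX35-dTAG line these 2 were -0.27 and 0.02, and Ddit4 had the widest difference (-0.29). Without replicate 2 they were -0.52 and 0.66.

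The values on DHX35 depletion turn on which DMSO library is used. Replicate 1 in DMSO, the library that stood apart, held the highest of the 8 values of Atf4, Asns, Ddit4 and Phgdh and the lowest of Ddit3, Chac1, Sesn2 and Psat1, so 8 of the 10 genes had an extreme there, as did 59.8% of all genes tested. The median gap between replicates of the 10 genes was 0.28 on the log2 scale in that group, against 0.09 in dTAG-13 of the same line and 0.06 and 0.03 in the groups of GPATCH1-dTAG cells. Without replicate 1 in DMSO, 9 of the 10 genes were higher in dTAG-13, with a median of 0.07, and 0 passed the threshold (0.0117% of all genes did). Atf4 then had a log2 fold change of 0.08, Asns of 0.01, Trib3 of 0.07, Ddit4 of 0.20 and Phgdh of 0.14, each with the opposite sign to the fit of all libraries, while Chac1 was at 0.44 (unadjusted p = 0.0615) and Atf3 at -0.32. Without replicate 2 in DMSO, so that replicate 1 was the only control, 5 of the 10 genes passed the threshold, as did 28.8% of all genes. Phgdh (-0.49, adjusted p = 1e-04), Atf4 (-0.23, adjusted p = 0.0216) and Asns (-0.18, adjusted p = 0.0473) were then lower, and Chac1 (0.69, adjusted p = 0.0368) and Psat1 (0.19, adjusted p = 0.0486) higher (edgeR in each case). Atf3 was then at 0.20 (adjusted p = 0.768). The difference between the responses for Phgdh was 0.66 without replicate 2 but 0.02 without replicate 1. In these fits the lone DMSO library is assumed to vary like the other groups.

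**Figure D3:**
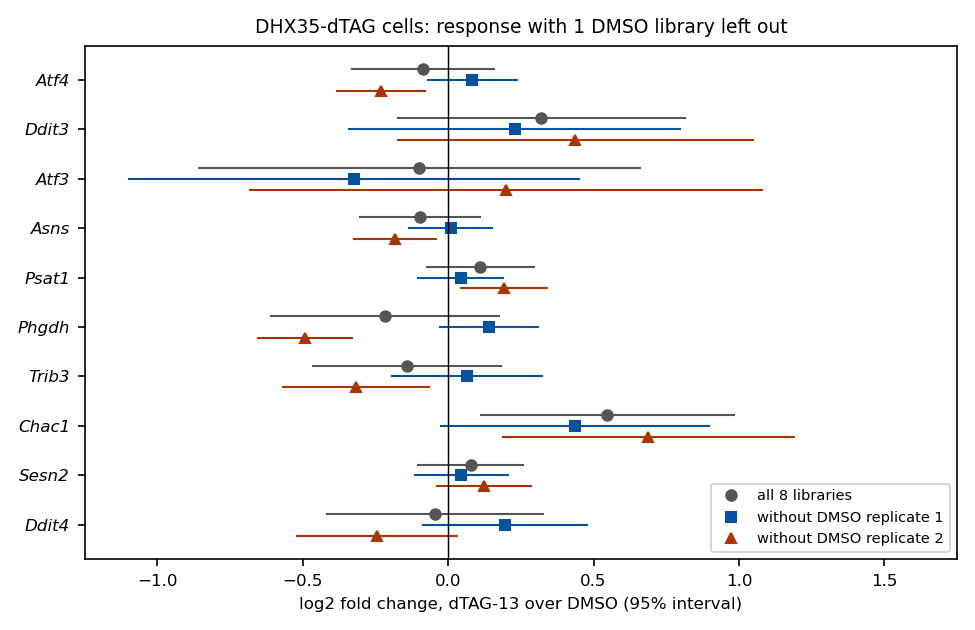
The horizontal axis gives the log2 fold change of dTAG-13 over DMSO in DHX35-dTAG cells with its 95% interval, from all 8 libraries (circles), without DMSO replicate 1 (squares) and without DMSO replicate 2 (triangles). Atf4, Atf3, Asns, Phgdh, Trib3 and Ddit4 lie on opposite sides of 0 in the fits without one or the other DMSO library, while Chac1 stays between 0.44 and 0.69.

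Between the lines in DMSO, the 10 genes were mostly higher in GPATCH1-dTAG cells (9 of 10, median log2 difference 0.15, against -0.01 for all genes), but 0 of 10 passed the threshold, as did 0.0916% of all genes. Without replicate 1 of the DHX35-dTAG line in DMSO again 9 of 10 were higher, with a median of 0.27, but without replicate 2 only 6 of 10 were, with a median of 0.039. These values use the same DMSO libraries as the responses above. An unadjusted p under 0.05 was found for 3 of 10 genes and 12.9% of all genes. They were Psat1 (log2 difference 0.27, standard error 0.08, unadjusted p = 0.00923, adjusted p = 0.34), Chac1 (0.51, standard error 0.19, unadjusted p = 0.0248, adjusted p = 0.354) and Ddit3 (0.48, standard error 0.21, unadjusted p = 0.049, adjusted p = 0.386), all from edgeR. With Atf3, they were also the 4 genes whose DMSO libraries did not overlap between the lines. All 4 were higher in GPATCH1-dTAG cells, as were 21.8% of all genes, while 21.3% were lower (43.1% in either direction). Over all 8 libraries, Ddit3 and Psat1 lay higher in each of the 4 libraries of GPATCH1-dTAG cells than in any of DHX35-dTAG cells, which makes 2 of 10 genes, against 5.63% of all genes so separated as higher and 6% as lower (11.6% in either direction). With DMSO replicate 1 of the DHX35-dTAG line left out, Phgdh passed (0.44, adjusted p = 0.0087), with 0.71% of all genes called. Without replicate 2, Psat1 (0.35, adjusted p = 0.000841) and Chac1 (0.64, adjusted p = 0.0409) passed, with 34.3% of all genes called. The lines are separate edited cells with different tagged genes, and clone, tag and culture cannot be told apart.

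Scaled by the total counts alone, without TMM, the median of all genes moved by -0.24 on DHX35 depletion, by 0.16 on GPATCH1 depletion, by 0.40 for the difference between the responses and by -0.18 between the lines. Sesn2 and Psat1 on DHX35 depletion, Trib3 and Ddit4 on GPATCH1 depletion, and Atf4, Asns, Sesn2 and Phgdh between the lines changed sign under that scaling, and under no other alternative apart from libraries left out. For the difference between the responses, Ddit3, Atf3, Chac1, Sesn2, Ddit4 and Psat1 changed sign, Chac1 from -0.39 to 0.02. No member passed the threshold under it.

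Per length of exon sequence, the order of the 10 genes spanned from Asns to Atf3. Median levels over the 8 libraries, in RPKM (CPM per kilobase of exon in GENCODE M21), were 273 for Asns, 90.5 for Atf4, 73.1 for Psat1, 46.0 for Phgdh, 28.4 for Sesn2, 10.2 for Trib3, 8.96 for Ddit4, 3.40 for Chac1, 1.89 for Ddit3 and 0.828 for Atf3. The ranges of neighbours overlapped for Atf4 and Psat1, for Trib3 and Ddit4, and for Chac1 and Ddit3, so their order is not set by these libraries. Asns, Psat1, Phgdh and Atf4 were thus well above Ddit3, Atf3 and Chac1.

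The genes whose levels ran most like Atf4 over the 8 libraries, among 10563 genes with a mean of at least 5 CPM, were Snhg5 (Pearson r of log2 CPM 0.97), H3c7 (0.97), Baz1b, Cct2 and Wwc2 (0.95 each). Those most like Asns were Snhg5 and Jam3 (0.98 each), Idnk (0.97), Sf3b1 and Ddx46 (0.96 each). Atf4 and Asns had an r of 0.96 with each other. These 8 points share lines and the library that stood apart, which was the highest of the 8 for Atf4 and Asns, and also for Snhg5, at 99.3 CPM against 72.8 to 96.1 CPM in the others. The values describe these libraries and carry no test.

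Other genes of the response were grouped by role into 9 lists of 77 genes, of which 76 were tested, Fgf21 being too low. On DHX35 depletion 0 of 76 passed the threshold and 36 were higher (median log2 fold change -0.02), where 48.5% of all genes were higher. On GPATCH1 depletion 0 of 76 passed and 59 were higher (median 0.06), where 50.8% of all genes were higher. With an unadjusted p under 0.05 stood 3 of the 76 genes in each depletion, beside 5.39% of all genes on DHX35 depletion and 2.97% on GPATCH1 depletion. On DHX35 depletion without replicate 1 in DMSO again 0 of 76 passed, but 55 were higher, with a median of 0.05, and without replicate 2 in DMSO 13 passed as higher and 21 as lower, where 28.8% of all genes passed. Of the 18 genes named below as the highest or lowest of their list on DHX35 depletion, 9 changed sign without replicate 1 in DMSO (Slc7a3, Gas5, Ppp1r15b, Dnajb9, Pck2, Cebpb, Jdp2, Eif2s3x and Yars), and 5 others shrank by over 1.5 times (Slc7a5 to 0.12, Iars to 0.06, Upp1 to 0.07, Eif4ebp1 to 0.14 and Creld2 to -0.05). Without replicate 2, 0 changed sign, but 13 grew by over 1.5 times, 11 of which then passed the threshold (Slc7a3, Slc7a5, Gas5, Ppp1r15b, Creld2, Dnajb9, Pck2, Eif4ebp1, Eif2s3x, Iars and Yars), as did 28.8% of all genes. Eif2s3x was then at 0.51, Dnajb9 at 0.83 and Yars at -0.46, while Ero1l shrank from -0.029 to -0.013. The median changed sign in 6 of the 9 lists without replicate 1, all but the other enzymes, the other ATF4 targets and the decay-sensitive transcripts, and in 1 without replicate 2, the transporters.

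Upstream of Atf4, the 14 stress kinases, their regulators and subunits of eIF2 and eIF2B had medians of 0.00 on DHX35 depletion (7 of 14 higher) and 0.06 on GPATCH1 depletion (10 of 14 higher). Eif2ak2, the kinase PKR that senses double-stranded RNA, was lower on GPATCH1 depletion (61.2 CPM in DMSO and 48.6 in dTAG-13, log2 fold change -0.33, standard error 0.12, unadjusted p = 0.0254), short of the threshold (adjusted p = 1, edgeR). Eif2ak3, the kinase PERK, had the lowest value of the list on DHX35 depletion (-0.22, standard error 0.10) and Eif2s3x the highest (0.20), and Eif2b5 was highest on GPATCH1 depletion (0.14). The phosphatase subunits Ppp1r15a and Ppp1r15b, which undo the phosphorylation of eIF2, had log2 fold changes of 0.07 and -0.13 on DHX35 depletion and 0.03 and 0.10 on GPATCH1 depletion. Of the 5 other transcription factors, Cebpb had the lowest value on DHX35 depletion (-0.23) and Cebpg, a dimer partner of ATF4, on GPATCH1 depletion (-0.28), while Jdp2 was highest in both (0.02 and 0.04).

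Among the 9 other enzymes of amino acid and one-carbon metabolism, 7 were higher on DHX35 depletion and 8 on GPATCH1 depletion, with medians of 0.09 and 0.08. Aldh1l2 had 0.30 and -0.19 in these comparisons and Pck2 -0.19 and 0.22. The responses of Pck2 differed by 0.41 (unadjusted p = 0.0468, adjusted p = 0.862, edgeR), by 0.20 without DMSO replicate 1 of the DHX35-dTAG line and by 0.58 without replicate 2. Gpt2, an alanine transaminase, had a log2 fold change of 0.14 across both lines (unadjusted p = 0.0214, adjusted p = 0.963, edgeR), and of 0.13 to 0.16 with each library left out in turn (unadjusted p = 0.0112 to 0.0615). Of the 9 amino acid transporters, 4 and 5 were higher, with Slc7a5 at 0.22 and Slc7a3 at -0.13 on DHX35 depletion, and Slc1a5 at 0.16 and Slc6a9 at -0.22 on GPATCH1 depletion. Slc7a11, the cystine transporter, was at a mean of 0.667 CPM, and its log2 fold change on DHX35 depletion was -0.38 from all libraries but 0.31 without replicate 1 in DMSO and -0.87 without replicate 2. On GPATCH1 depletion it was -0.50 (standard error 0.46). The 13 genes of tRNA charging and export were higher in 13 of 13 on GPATCH1 depletion, where 50.8% of all genes were higher, from 0.04 for Aars to 0.14 for Mars1, and in 5 of 13 on DHX35 depletion, from -0.23 for Yars to 0.17 for Iars. On DHX35 depletion without replicate 1 in DMSO, 12 of the 13 were higher, with a median of 0.05, and without replicate 2 again 5 of 13, with a median of -0.17 in place of -0.07. From all libraries, none of these values passed the threshold.

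In the remaining lists, the 3 values with an unadjusted p under 0.05 on DHX35 depletion were smaller without replicate 1 in DMSO. Eif4ebp1, a translation repressor and ATF4 target, was at 156 CPM in that library and at 257 CPM in replicate 2, against 279 and 286 CPM in dTAG-13. Its log2 fold change was 0.45 (standard error 0.18, unadjusted p = 0.0367, adjusted p = 0.715, edgeR), 0.14 without that library and 0.87 without replicate 2. Creld2, a resident protein of the endoplasmic reticulum, was at 76.9 CPM there and at 40.8 CPM in replicate 2, against 39.4 and 39.0 CPM in dTAG-13. Its log2 fold change was -0.58 (standard error 0.24, unadjusted p = 0.0362, adjusted p = 0.715, edgeR), -0.05 without that library and -0.96 without replicate 2. Atf6, the stress sensor of the endoplasmic reticulum, was at 51.1 CPM in replicate 1 and at 60.0 CPM in replicate 2, against 68.2 and 63.6 CPM in dTAG-13. Its log2 fold change was 0.25 (unadjusted p = 0.0355, edgeR), 0.14 without replicate 1 and 0.38 without replicate 2. For Eif4ebp1 and Atf6, both treated libraries thus lay above both DMSO libraries, and for Creld2 both lay below. Of all genes, 14.6% were so separated as higher and 14.1% as lower. The 6 other ATF4 targets tested had medians of 0.18 (5 of 6 higher) and -0.05 (2 of 6) in the DHX35 and GPATCH1 depletions. The first was 0.21 (5 of 6) without DMSO replicate 1 and 0.03 (3 of 6) without replicate 2. From all libraries, Ero1l was lowest on DHX35 depletion (-0.03), and Herpud1 (0.13) and Vldlr (-0.37) were at the ends on GPATCH1 depletion. The 12 genes of the IRE1 and ATF6 arms of the unfolded protein response had medians of -0.09 (5 of 12 higher) and 0.06 (11 of 12), and on DHX35 depletion 0.03 (8 of 12) without replicate 1 in DMSO and -0.18 (5 of 12) without replicate 2. From all libraries, Dnajb9 was highest on DHX35 depletion (0.31), and Sdf2l1 was highest (0.13) and Ern1 lowest (-0.29, unadjusted p = 0.0268, adjusted p = 1) on GPATCH1 depletion. Ern1, which encodes the sensor IRE1, was at 18.2 and 17.0 CPM in DMSO and at 14.7 and 15.5 CPM in dTAG-13 in DHX35-dTAG cells, and at 18.0 and 17.8 CPM and then 14.9 and 14.4 CPM in GPATCH1-dTAG cells. All 4 treated libraries thus lay below all 4 DMSO libraries, a separation found in 2.25% of all genes in either direction. Its log2 fold change was -0.22 on DHX35 depletion and -0.26 across both lines (standard error 0.07, unadjusted p = 0.00632, adjusted p = 0.963, edgeR), from -0.28 to -0.24 with each library left out in turn, and it did not pass the threshold. Aldh18a1, of the list of other enzymes, was separated the opposite way, with all 4 treated libraries above all 4 DMSO libraries (0.12 across both lines, unadjusted p = 0.0571, adjusted p = 0.963, edgeR).

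Of the 6 decay-sensitive transcripts that are not among the 10 genes, 1 was higher on DHX35 depletion, with a median of -0.12. On GPATCH1 depletion the median was 0.05, and 6 had a value above 0, but that of Gas5 was 0.00, at 130.1 CPM in both groups. Gas5, a host of small nucleolar RNAs, had the lowest value of the list in both depletions (-0.27 in the first). In DHX35-dTAG cells Gas5 was at 171 and 118 CPM in DMSO and at 108 and 131 CPM in dTAG-13. Its log2 fold change was 0.02 without replicate 1 in DMSO, where 3 of the 6 transcripts were higher. It was -0.51 without replicate 2, where 2 of the 6 were higher. Upp1 was highest on DHX35 depletion (0.11). Gadd45a, a growth arrest gene and known target of nonsense-mediated decay, was at 17.5 and 17.2 CPM in DMSO and at 24.6 and 23.4 CPM in dTAG-13 in GPATCH1-dTAG cells. In DHX35-dTAG cells it was at 25.6 and 21.0 CPM in DMSO and at 20.2 and 20.7 CPM in dTAG-13. The treated libraries thus lay above the DMSO libraries in the first line, a separation found in 21.5% of all genes. They lay below them in the second, a separation found in 14.1%. The log2 fold change of Gadd45a in DHX35-dTAG cells was -0.19, but -0.04 without replicate 1 in DMSO and -0.32 without replicate 2. Its log2 fold change on GPATCH1 depletion was 0.47 (standard error 0.12, unadjusted p = 0.00406, adjusted p = 1, edgeR). The difference between the responses was 0.66 (standard error 0.17, unadjusted p = 0.00433, adjusted p = 0.862, edgeR). That difference was 0.50 without DMSO replicate 1 of the DHX35-dTAG line and 0.79 without replicate 2. The test on GPATCH1 depletion shares its estimate of spread with the DHX35-dTAG libraries. With either DMSO library of that line left out, the log2 fold change of Gadd45a on GPATCH1 depletion was again 0.47. That of Eif2ak2 was -0.33 without replicate 1. In both fits the lone DMSO library gives no spread of its own, so they are not separate checks of the test.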

How the data were processed

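The authors depleted ribosomal RNA, added human DLD-1 RNA as a spike-in, made stranded libraries, trimmed reads with Trim Galore 0.6.6 after FastQC 0.11.9 and aligned them with STAR 2.7.5c to mm10 and hg19. The authors deposited raw counts per gene symbol, 1 table per library, without normalization. DESeq2 1.26.0 is listed in the submitters' processing notes. The counting program, annotation and strand setting are not given in the sources used here, so overlapping and antisense genes are uncertain. Spike-in reads were not used here.

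The sample labels gave each library's group and replicate number. The tests used edgeR 4.0.16 under R 4.3.3 (glmQLFit, glmQLFTest, TMM, filterByExpr on the 4 groups, all 8 libraries sharing the spread, Benjamini-Hochberg adjustment over 16371 genes, threshold 0.05), in a model with 1 term per group, and with line and treatment for dTAG-13 across both lines. The coefficient of variation between replicates was 11.2%. Standard errors were obtained from the log2 fold change and its F statistic. With 2 libraries against 2, an exact permutation test cannot go below p = 0.333 and was not used. The replicates of a group were not duplicates, with a chi-square per gene of 5.51 to 140 where sampling noise gives about 1.

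The 10 genes, the lists and the tests were chosen with earlier results of these data known. Named genes were the 10 genes, Dhx35 and Gpatch1, list genes past the threshold or otherwise the highest and lowest of each list in each depletion at a mean of at least 1 CPM, and the 5 genes most like Atf4 and Asns. List genes with an unadjusted p under 0.05, and Slc7a11, Fgf21 and Aldh18a1, were named after their values were seen. Alternatives were DESeq2 1.42.0, its size factors in edgeR, total counts, no filter, at least 10 counts in every library, the 2 ribosomal genes removed, only the libraries compared, a robust prior, a replicate block and each library left out in turn.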

Additional observations from a re-analysis of the deposited data

How the results depend on the processing

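Of the 10 genes, 0 passed the threshold in any of the 5 comparisons under DESeq2, its size factors in edgeR, total counts, both other filters, removal of the 2 ribosomal genes, only the libraries compared (for the comparisons within a line or within DMSO), a robust prior or the replicate block. With each library left out in turn, from 0 to 5 of them passed for DHX35 depletion, 0 for GPATCH1 depletion, 0 across both lines, 0 to 1 for the response difference and 0 to 2 between the lines. Their median log2 fold change with a library left out was from -0.063 to 0.074 on DHX35 depletion and from 0.015 to 0.037 on GPATCH1 depletion. It was from -0.072 to 0.041 across both lines, from -0.058 to 0.033 for the response difference and from 0.039 to 0.27 between the lines. On GPATCH1 depletion, Asns, Sesn2 and Ddit4 each changed sign in 1 of the fits with a library left out. With total counts the median was -0.30 for DHX35 depletion, 0.19 for GPATCH1 depletion, 0.37 for the response difference and -0.033 between the lines. The cause of these changes was not tested, apart from the shift of all genes under total counts given above. Over all genes, DESeq2 called 1 on DHX35 depletion, 4 across both lines, 9 for the difference between the responses and 47 between the lines. Total counts called 318, 10 on GPATCH1 depletion, 13, 179 and 701, and no filter called 345, 21, 80, 140 and 986. Only the libraries compared gave 1 for DHX35 depletion, 127 for GPATCH1 depletion and 2 between the lines, and at least 10 counts in every library gave 4 between the lines, where all libraries with the filter gave 15. With a library left out, the counts were 0 to 4949 for DHX35 depletion, 0 to 51 for GPATCH1 depletion, 0 to 8 across both lines, 0 to 3592 for the response difference and 4 to 5887 between the lines. The highest of these for DHX35 depletion, the difference between the responses and the lines came with DMSO replicate 2 of the DHX35-dTAG line left out, the 8 across both lines with its DMSO replicate 1 left out, and the 51 with either of these left out. Replicate numbers were not treated as pairs. The correlations of replicate differences between groups were weak but all above 0, from 0.04 to 0.23. They cannot decide whether libraries with the same number were handled together. The replicate block called 2 genes for the difference between the responses and 16 between the lines, and 0 in the other comparisons. Depth limits Atf3, Ddit3 and Chac1, whose lowest counts were 13, 31 and 47.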
